A study of Mus musculus with 4 samples.

Results

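The axon guidance ligands and receptors were examined as a group of 68 protein-coding genes in chromatin accessibility data from mouse heart. Members were chosen by symbol alone: the semaphorins (Sema), plexins (Plxn), neuropilins (Nrp), Eph receptors (Epha, Ephb), ephrins (Efna, Efnb), Robo receptors, Slits, Unc5 receptors and netrins (Ntn) in the RefSeq gene table of GRCm38.p6, the assembly also called mm10. Symbols that only begin alike, such as Unc50, Unc5cl, Ntng1, Ntng2 and the Slitrk genes, were left out. A peak belonged to a member where it overlapped the gene or lay within 10 kb of either end, which gave 655 of the 87948 peaks in the table. Of the 68 genes, 66 had at least 1 peak, with a median of 7 per gene. Sema6d had the most, 35, while Epha10 and Sema3e had none.

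The libraries were made by ATAC-seq, which tags accessible DNA with adapters carried by a transposase, from heart tissue of mice at postnatal day 14; the design text of the series describes them as neonatal. There were 2 libraries of wild-type hearts and 2 of hearts labelled Carm1 mutant. Carm1 encodes an arginine methyltransferase that modifies histones and acts as a transcriptional coactivator. The strain, the Carm1 allele, the promoter of any Cre and the cells in which Carm1 was altered are not stated in the labels. The comparison asked where accessibility differed between the genotypes. The libraries held 15945420 to 19091969 counts in peaks. The strongest peak over the Carm1 start (chromosome 9, 21545484 to 21546896) had 90.1 and 89.5 CPM in the wild type against 91.4 and 95.5 CPM in the mutant (log2 ratio 0.06, SE 0.12, edgeR adjusted p = 0.839), which does not check the genotype because the altered part of the gene is not known. CPM express a peak's count relative to the TMM-adjusted library size. Of the 9 Carm1 peaks 1 was higher, at 1.30 and 1.91 against 5.11 and 3.28 CPM (edgeR adjusted p = 0.0350), and 1 within the gene was lower, at 3.17 and 3.35 against 1.28 and 1.20 CPM (edgeR adjusted p = 0.0367); DESeq2 called neither (adjusted p = 0.102 and 0.135). Peaks at the starts of the Y-linked genes Uty and Ddx3y held 273 and 197 counts in wild-type replicate 1 and 251 and 201 in mutant replicate 1. They held 0 counts in both libraries numbered 2, so the libraries of a genotype differed in Y-linked reads in the same way as their replicate numbers. The labels do not say whether replicates came from separate animals or pools. Libraries with and without Y-linked reads cannot have come from the same animal. The p-values measure the spread between these libraries, which includes the difference in Y-linked reads.

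Axon guidance proteins steer growing axons and also migrating endothelial, neural crest and muscle precursor cells. Semaphorins bind plexins, often with neuropilins as co-receptors. Ephrins on a cell's surface bind Eph receptor tyrosine kinases on its neighbour and can signal in both directions. Slits bind Robo receptors, and netrins bind Unc5 receptors and Dcc. In the heart these families are known for shaping the outflow tract, valves, coronary vessels and sympathetic nerves.

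Because ATAC-seq reads gather at open promoters, the promoter sequences of the members are shown first, with starts under strong and moderate peaks beside starts without a peak. They were chosen after their values were seen. RefSeq (GRCm38.p6) listed promoter windows of 300 bases, 250 before and 50 after the start, for 59 of the 68 members. The 9 members without an entry were Plxna4, Plxna1, Unc5d, Sema3b, Sema3f, Ntn1, Efnb3, Sema6a and Slit1. Nrp1 (chr8:128358823-128359122, plus strand) and Ephb3 (chr16:21204545-21204844, plus strand) lay under strong peaks, and Sema5a (chr15:32244563-32244862, plus strand) under a peak of middle strength. Epha8 (chr4:136956767-136957066, minus strand) and Sema3a (chr5:13396534-13396833, plus strand) had no peak over the window. Each is printed 5′ to 3′ with every CG dinucleotide, the site of DNA methylation in mammals, in capitals.
Nrp1: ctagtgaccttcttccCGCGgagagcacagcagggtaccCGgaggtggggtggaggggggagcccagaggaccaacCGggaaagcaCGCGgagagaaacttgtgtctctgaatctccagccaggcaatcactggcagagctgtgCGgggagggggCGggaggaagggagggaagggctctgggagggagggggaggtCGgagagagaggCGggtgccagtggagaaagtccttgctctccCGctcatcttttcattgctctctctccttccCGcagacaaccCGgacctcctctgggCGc
Ephb3: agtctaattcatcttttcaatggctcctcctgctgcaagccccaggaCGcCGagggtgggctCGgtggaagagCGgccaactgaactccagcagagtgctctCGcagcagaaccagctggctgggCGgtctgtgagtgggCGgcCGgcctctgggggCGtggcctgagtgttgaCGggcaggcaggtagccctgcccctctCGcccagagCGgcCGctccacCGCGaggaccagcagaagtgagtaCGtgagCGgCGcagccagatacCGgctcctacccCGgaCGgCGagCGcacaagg
Sema5a: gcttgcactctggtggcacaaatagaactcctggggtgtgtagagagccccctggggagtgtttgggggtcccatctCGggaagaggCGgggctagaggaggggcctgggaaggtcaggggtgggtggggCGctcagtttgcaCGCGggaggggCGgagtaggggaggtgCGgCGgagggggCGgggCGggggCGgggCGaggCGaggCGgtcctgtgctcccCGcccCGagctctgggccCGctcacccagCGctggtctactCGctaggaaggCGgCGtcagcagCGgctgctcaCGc
Epha8: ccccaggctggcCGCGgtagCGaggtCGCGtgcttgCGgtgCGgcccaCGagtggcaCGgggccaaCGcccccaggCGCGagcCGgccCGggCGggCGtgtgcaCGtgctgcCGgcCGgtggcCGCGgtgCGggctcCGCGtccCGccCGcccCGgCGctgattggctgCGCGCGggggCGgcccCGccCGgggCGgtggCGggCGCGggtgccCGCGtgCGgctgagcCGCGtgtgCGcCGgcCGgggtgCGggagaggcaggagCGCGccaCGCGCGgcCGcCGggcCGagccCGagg
Sema3a: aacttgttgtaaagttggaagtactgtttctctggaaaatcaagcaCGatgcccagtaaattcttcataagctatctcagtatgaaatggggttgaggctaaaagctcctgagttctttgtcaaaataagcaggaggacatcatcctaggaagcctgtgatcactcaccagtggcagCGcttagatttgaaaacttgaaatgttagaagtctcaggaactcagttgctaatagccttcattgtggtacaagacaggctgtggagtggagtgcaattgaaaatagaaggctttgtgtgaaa

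The sequences differ in how many CG dinucleotides they hold. The windows of Nrp1, Ephb3 and Sema5a held 14, 23 and 23, that of Sema3a held 2, and that of Epha8, which had no peak, held 56. CG reads the same on both strands, so each match counts once for both. Over the 75 listed windows of members, the 50 that a peak overlapped had a median of 23 CG and the 25 without a peak a median of 11. At least 15 CG were found in 76.0% of the overlapped and 36.0% of the other member windows. Among all 21262 listed windows of protein-coding genes the medians were 21 with a peak and 3 without, and 95.4% of windows held at least 1 CG. A peak overlapped 66.7% of member windows and 57.2% of all windows. These counts describe the windows and carry no test.

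**Figure D1:**
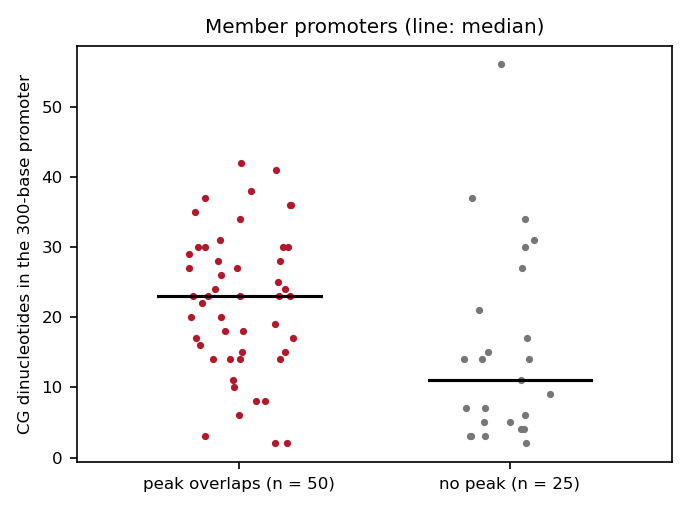
CG dinucleotides (y axis, number in the 300-base window) in the listed promoter windows of member genes, split by whether a peak overlapped the window; each point is a window and the line is the median. Windows with a peak have a median of 23 and windows without one a median of 11, with the highest value, 56, in a window without a peak.

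At the members, accessibility differed between the genotypes at few peaks and in both directions equally. Among the 655 peaks, the mutant was higher at 12 and lower at 12, at an adjusted p under 0.05 (edgeR, quasi-likelihood, Benjamini-Hochberg), and 631 did not pass. That is 3.66% of member peaks, against 5.50% of all peaks in the table; by direction, 1.83% were higher against 3.05%, and 1.83% lower against 2.45%. The median log2 ratio of mutant to wild type (the fitted log2 fold change) was 0.01 for the members and 0 for all peaks. Both mutant libraries lay above both wild-type libraries at 168 member peaks and below them at 169, or 25.6% and 25.8%, where the whole table had 25.8% and 25.7%. The share of called peaks was thus no higher at the members than in the table, and the share of peaks without overlap was near that of the table. Counts of peaks without overlap given for single genes and families below are to be read against the same 25.8% above and 25.7% below. Counts of called peaks there are to be read against the 5.50% of all peaks. The called peaks lay at 18 genes: 11 had a higher and 8 a lower peak, and Slit3 had both.

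Fewer calls passed when a wild-type library was left out, and more when a mutant library was. Without wild-type replicate 1, 3 higher and 6 lower member peaks passed, 1.37% of 655 against 2.17% of all peaks. Without wild-type replicate 2, 2 higher and 0 lower passed, or 0.305% against 1.14%; with all 4 libraries 62 member peaks were higher and 70 lower at an unadjusted p under 0.05, DESeq2 called 7 and 6, and limma voom 9 and 12. Without mutant replicate 1, 24 and 14 passed, or 5.8% against 7.89%, and without mutant replicate 2, 30 and 30, or 9.16% against 9.60%. All 24 called peaks kept their direction in these fits, but none was called whichever library was left out. At all 24, both mutant values lay beyond both wild-type values, so leaving out a library could hardly turn the direction. Log2 ratios of these 24 peaks were set against those from all 4 libraries. They were 0.687 to 1.21 times without wild-type replicate 1 and 0.753 to 1.44 times without wild-type replicate 2. With a wild-type library left out the folds thus moved less than the calls. Such a fit takes its spread between replicates from the mutant pair alone, moderated over all peaks. Leaving out any library also leaves the genotypes unequal in Y-linked reads. Without mutant replicate 1 the log2 ratios were 0.809 to 1.65 times, and without mutant replicate 2 0.162 to 1.23 times, those from all 4 libraries. A fit with the replicate number as a block, which divides the libraries as the Y-linked reads do, called 29 higher and 34 lower member peaks, 9.62% against 11.1% of all peaks, and kept all 24.

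**Figure D2:**
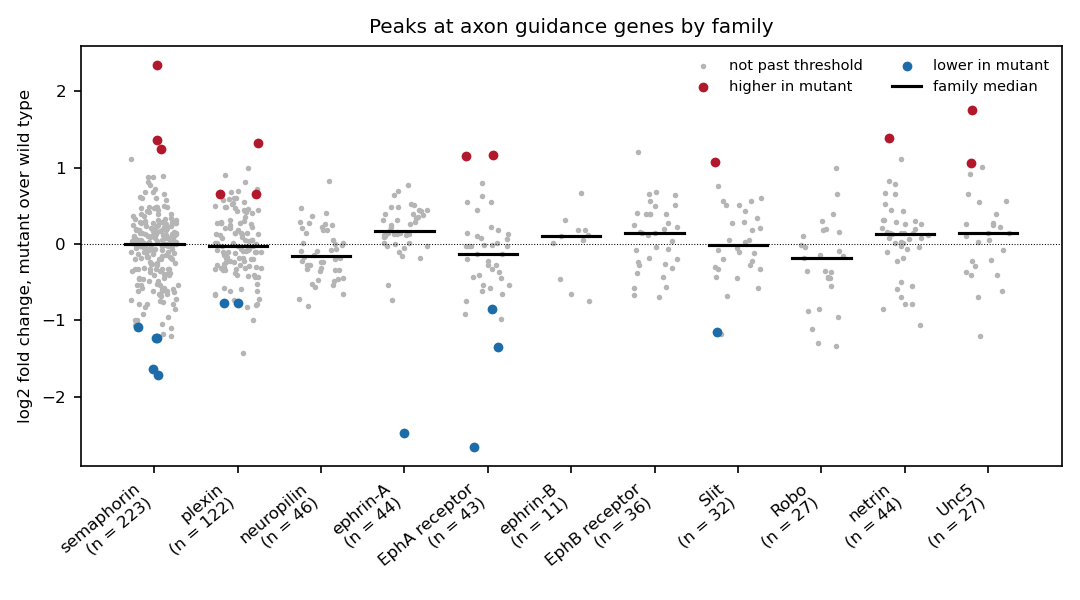
Log2 fold change, mutant over wild type (y axis), of each member peak by gene family (x axis, with the number of peaks); red points were called higher, blue points lower, grey points did not pass, and lines mark family medians. Family medians lie between -0.18 and 0.17 and the called peaks sit at both edges of the larger families.

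None of the called peaks lay at a gene start. The 66 member peaks within 1 kb of a listed start of their gene included 0 calls (5 higher and 0 lower at an unadjusted p under 0.05; 0 calls by DESeq2 and by limma voom), and their median log2 ratio was 0.11, or -0.03 without mutant replicate 1. In the whole table, 1.26% of peaks within 1 kb of a listed start of a protein-coding gene were called, against 6.17% of all other peaks. Starts were listed for 17491 of 21896 protein-coding genes, so the other peaks include those at unlisted starts. Of the 24 called member peaks, 21 lay within the gene and 3 in the flanking 10 kb, and all 12 lower peaks were within the gene. The nearest called peak to a start was 1712 bp away, at Slit3. Peaks within genes and more than 1 kb from a start numbered 462, with 9 higher, 12 lower and a median of -0.06 (-0.12 without mutant replicate 2). Called peaks were mostly weak, as were peaks in general: 18 of the 24 had a mean under 10 CPM. Their median was 4.3 CPM, against 5.49 for all member peaks and 5.54 for all peaks in the table. Folds of at least 2 were found at 10 of the higher and 9 of the lower peaks.

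**Figure D3:**
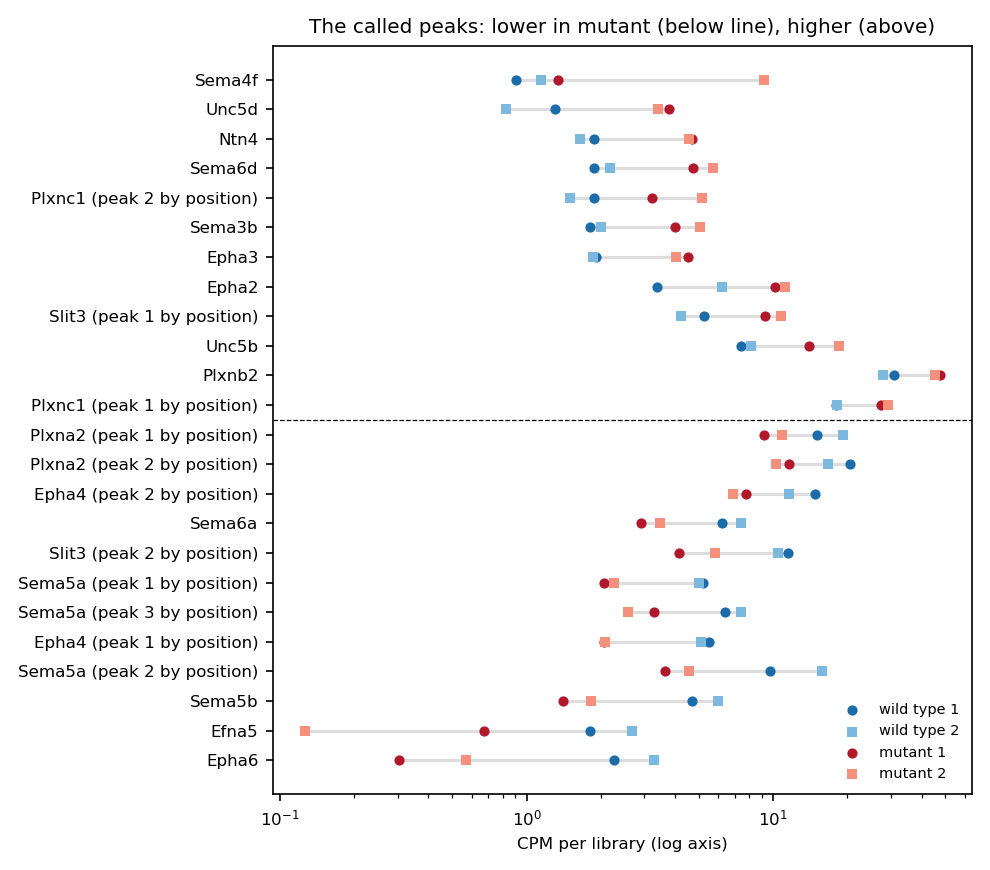
CPM in each library (x axis, log scale) of the 24 called member peaks, ordered by log2 fold change, with circles for replicates numbered 1 and squares for replicates numbered 2, blue for wild type and red for mutant. No row has overlapping genotypes; at Sema4f mutant 2 (9.15 CPM) stands far from the other libraries.

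Semaphorins are the largest family of guidance ligands: class 3 members are secreted and most others are held in the membrane. Of their 223 peaks, 3 were higher, 5 lower and 215 did not pass, with a median log2 ratio of 0. Of the 5 lower peaks, 4 were at the class 5 genes Sema5a and Sema5b, which encode transmembrane semaphorins with thrombospondin repeats. A peak within Sema5a, 111880 bp downstream of its start (chromosome 15, 32356693 to 32357243), had 9.73 and 15.8 CPM in the wild type against 3.65 and 4.54 CPM in the mutant. Both mutant values were under the lower wild-type value, and the wild-type values differed from each other more than the mutant ones. The log2 ratio was -1.64 (SE 0.28, edgeR adjusted p = 0.00237), the smallest p of any member peak.

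Another pair of Sema5a peaks was lower as well. The first, 28996 bp from the start (32273809 to 32274269), had 5.21 and 5.01 CPM in the wild type against 2.07 and 2.27 CPM in the mutant. The second, 261137 bp from the start (32505950 to 32506366), had 6.39 and 7.38 against 3.28 and 2.59 CPM. Replicates lay close together at both, and both log2 ratios were -1.23 (SE 0.32 and 0.29, edgeR adjusted p = 0.0283 and 0.0188). The other 23 of the 26 Sema5a peaks did not pass. The peak over the printed Sema5a promoter had 17.5 and 19.6 CPM in the wild type and 20.3 in each mutant library, a log2 ratio of 0.13 (edgeR adjusted p = 0.738), so the lower peaks were within the gene and not at its start.

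At Sema5b a peak 110884 bp from the start (chromosome 16, 35652246 to 35652598) had 4.70 and 5.99 CPM in the wild type against 1.40 and 1.83 CPM in the mutant. Both mutant libraries were low, with a log2 ratio of -1.72 (SE 0.34, edgeR adjusted p = 0.00675). The other 6 Sema5b peaks did not pass. Sema6a encodes a transmembrane semaphorin that signals through class A plexins. Its called peak (chromosome 18, 47341818 to 47342348) had 6.22 and 7.38 against 2.92 and 3.47 CPM, a log2 ratio of -1.09 (SE 0.29, edgeR adjusted p = 0.0311). The median over its 25 peaks was -0.31, and -0.08 without wild-type replicate 1.

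The 3 higher semaphorin peaks were at Sema6d, Sema3b and Sema4f. Sema6d, known from heart chamber development, had a peak inside the gene (chromosome 2, 124408986 to 124409354) with 1.87 and 2.17 CPM in the wild type against 4.74 and 5.68 CPM in the mutant. Both mutant values were more than 2 times those of the wild type (log2 ratio 1.36, SE 0.32, edgeR adjusted p = 0.0187), while the median over the 35 Sema6d peaks was -0.28 and both mutant libraries lay below at 14 of them. Sema3b, a secreted ligand of neuropilins, had a peak (chromosome 9, 107605192 to 107605544) with 1.81 and 2.01 against 4.01 and 5.05 CPM (log2 ratio 1.24, SE 0.34, edgeR adjusted p = 0.0369). At Sema3b 8 of 17 peaks had both mutant libraries above both wild-type libraries and 0 had them below. The only Sema4f peak, 2412 bp beyond the gene (chromosome 6, 82909248 to 82909472), had 0.905 and 1.14 CPM in the wild type against 1.34 and 9.15 CPM in the mutant. The high value was in mutant replicate 2 alone, and the log2 ratio of 2.35 (SE 0.57, edgeR adjusted p = 0.0215) was 0.38 without that library (edgeR adjusted p = 0.714).

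Of the 8 semaphorin calls, 3 passed without wild-type replicate 1, at Sema5a (edgeR adjusted p = 0.000475), Sema5b (0.0129) and Sema4f (0.0489), and the others had 0.0535 to 0.179. Without wild-type replicate 2 the 7 calls other than Sema4f (0.0366) were lost, with edgeR adjusted p = 0.0591 to 0.244; Sema6a was also lost without mutant replicate 1 (0.0647) and Sema3b without mutant replicate 2 (0.0845).

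**Figure D4:**
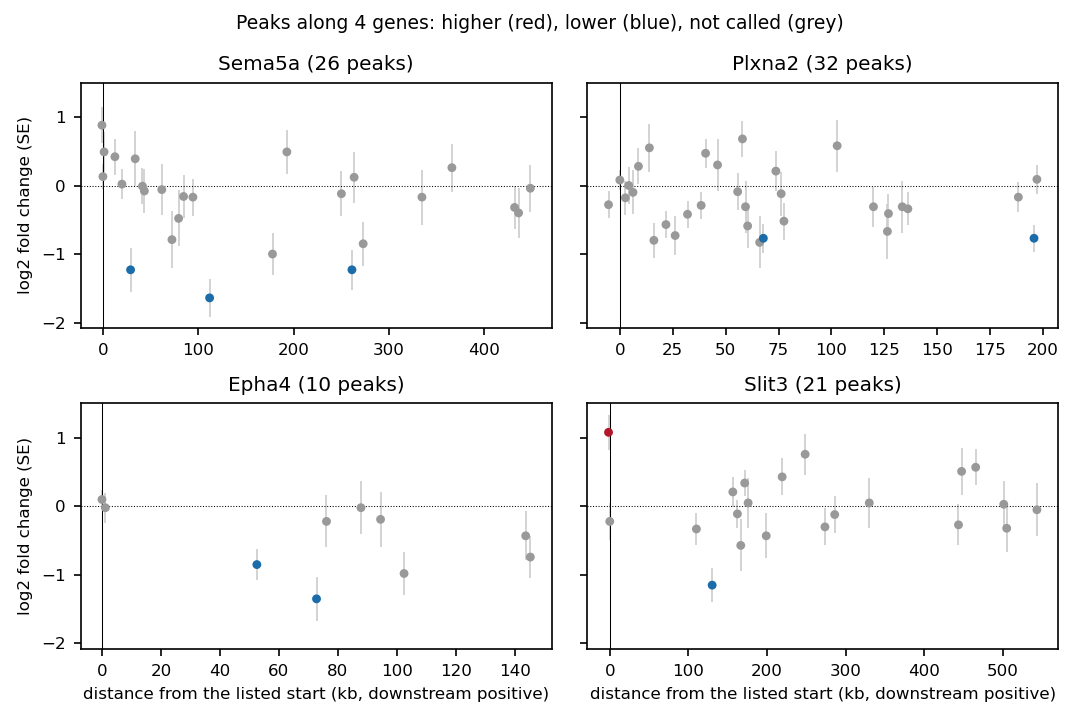
Log2 fold change with its SE (y axis) of every peak along Sema5a, Plxna2, Epha4 and Slit3, against distance from the listed start in kb (x axis, downstream positive); red peaks were called higher, blue lower and grey did not pass. The lower peaks of all 4 genes lie between 28996 and 261137 bp downstream, and the only higher peak lies 1712 bp before the Slit3 start.

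Plexins are the semaphorin receptors, with an intracellular GTPase-activating domain. Of 122 plexin peaks, 3 were higher, 2 lower and 117 did not pass, and the median log2 ratio was -0.02. Plxnb2, a receptor for class 4 semaphorins, had the strongest called member peak (chromosome 15, 89168956 to 89170813). It lay 3138 bp downstream of the nearest of the gene's listed starts. The values were 31.0 and 27.9 CPM in the wild type against 47.6 and 45.5 CPM in the mutant. Each pair was close and the gap between pairs was wide next to them (log2 ratio 0.66, SE 0.15, edgeR adjusted p = 0.0140). A peak over a different listed Plxnb2 start, further upstream, had 87.5 and 88.8 against 114 and 107 CPM. It did not pass (log2 ratio 0.32, SE 0.12, edgeR adjusted p = 0.127), and the log2 ratio was 0.37 without mutant replicate 2. Both mutant libraries lay above at 5 of the 9 Plxnb2 peaks and below at 0.

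Plxnc1, the receptor of Sema7a, had a pair of higher peaks. The stronger lay 993 bp beyond the gene's end (chromosome 10, 94789191 to 94789873), inside the neighbouring gene Cep83 and 463 bp from its end, and had 18 and 18.2 CPM in the wild type against 27.4 and 29.3 CPM in the mutant. The groups were well apart (log2 ratio 0.65, SE 0.17, edgeR adjusted p = 0.0297). The weaker, within the gene (94800783 to 94801333), had 1.87 and 1.5 against 3.22 and 5.17 CPM, with mutant replicate 2 the highest (log2 ratio 1.32, SE 0.37, edgeR adjusted p = 0.0399).

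Plxna2, a receptor that pairs with neuropilins or binds Sema6 ligands directly, had both lower plexin peaks. One of them, 67803 bp from the start (chromosome 1, 194687632 to 194688399), had 15.1 and 19.2 CPM in the wild type against 9.18 and 10.9 CPM in the mutant. The other, near the far end of the gene (194815522 to 194816423), had 20.5 and 16.7 against 11.6 and 10.3 CPM. Both log2 ratios were -0.77 (SE 0.21 and 0.20, edgeR adjusted p = 0.0370 and 0.0314), with the wild-type replicates in opposite order at the 2 peaks. Over its 32 peaks the median was -0.28, and -0.17 without wild-type replicate 2. None of the 5 plexin calls passed without wild-type replicate 1 (edgeR adjusted p = 0.0695 to 0.302) or without wild-type replicate 2 (0.0932 to 0.388); the first Plxna2 peak was also lost without mutant replicate 1 (0.0616) and the weaker Plxnc1 peak without mutant replicate 2 (0.166). Neuropilins 1 and 2, co-receptors for class 3 semaphorins and vascular endothelial growth factor, had 46 peaks and 0 calls (2 higher and 4 lower at an unadjusted p under 0.05; 0 by DESeq2 and limma voom). Their median was -0.15, and both mutant libraries lay below at 17 and above at 6 of these peaks.

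Among Eph receptors and ephrins, the EphA receptors held most of the calls and the ephrin-A genes 1. Of 43 EphA receptor peaks 2 were higher and 3 lower, of 44 ephrin-A peaks 1 was lower, and the 36 EphB receptor and 11 ephrin-B peaks held 0 calls. In the EphB receptors 3 peaks were higher and 1 lower at an unadjusted p under 0.05, in the ephrin-B genes 0 and 1, and DESeq2 and limma voom called 0 in each. Of all peaks 5.50% were called, a share at which sets of this size can hold 0 calls. The difference between the classes was not tested. Median log2 ratios were -0.13 for EphA receptors, 0.15 for EphB receptors, 0.17 for ephrin-A and 0.10 for ephrin-B genes, the last of which was -0.02 without mutant replicate 1. Leaving out mutant replicate 1 moved the EphA median to -0.04, and leaving out mutant replicate 2 moved it to -0.26. Both mutant libraries lay above at 19 and below at 3 of the 44 ephrin-A peaks, where 25.8% of all peaks lay above and 25.7% below.

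The lowest fold among the members was at Epha6, a receptor best known from the nervous system. Its called peak, 518228 bp from the start (chromosome 16, 60086993 to 60087303), had 2.26 and 3.30 CPM in the wild type against 0.304 and 0.568 CPM in the mutant, from 40, 64, 5 and 9 counts. Both mutant libraries were low, with a log2 ratio of -2.66 (SE 0.49, edgeR adjusted p = 0.00408). Epha4, a receptor that binds both ephrin classes, had a pair of lower peaks, at 72730 and 52505 bp from its start. The first (chromosome 1, 77441938 to 77442358) had 5.49 and 5.11 CPM in the wild type against 2.07 and 2.08 CPM in the mutant, so replicates nearly coincided (log2 ratio -1.35, SE 0.32, edgeR adjusted p = 0.0182). The second (77461695 to 77462583) had 14.8 and 11.6 against 7.73 and 6.88 CPM (log2 ratio -0.85, SE 0.23, edgeR adjusted p = 0.0356). The peak over the Epha4 start had 46.2 and 49.2 CPM in the wild type against 53.3 and 49.0 CPM in the mutant, and these overlapped. Of the 10 Epha4 peaks, 4 had both mutant libraries below and 0 had them above.

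The 2 higher EphA peaks were at Epha2, a receptor of epithelial and endothelial cells, and Epha3, a receptor known from the mesenchyme of the forming atrioventricular valves. At Epha2 (chromosome 4, 141310250 to 141311033) the wild type had 3.39 and 6.19 CPM and the mutant 10.2 and 11.2 CPM. The lower wild-type value was in replicate 1, and the log2 ratio of 1.15 (SE 0.28, edgeR adjusted p = 0.0196) moved to 0.79 when wild-type replicate 1 was left out and to 1.66 when wild-type replicate 2 was. At Epha3 (chromosome 16, 63817466 to 63817969) the values were 1.92 and 1.86 against 4.50 and 4.04 CPM (log2 ratio 1.17, SE 0.34, edgeR adjusted p = 0.0471). This was the largest edgeR adjusted p of the 24 calls. Scaling by total counts gave an edgeR adjusted p of 0.0533, and limma voom an adjusted p of 0.0586. The limma voom values were larger at Sema4f (0.157) and the weaker Plxnc1 peak (0.0605).

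Efna5, a membrane-anchored ligand of EphA receptors, had 1 lower peak of 20 (chromosome 17, 62757201 to 62757469), with 1.81 and 2.68 CPM in the wild type against 0.669 and 0.126 CPM in the mutant. The mutant values rested on 11 and 2 counts. The log2 ratio was -2.47 (SE 0.56, edgeR adjusted p = 0.0139), but -4.08 without mutant replicate 1, -1.74 without mutant replicate 2, and -1.53 with cyclic loess offsets (edgeR adjusted p = 0.109). Leaving out wild-type replicate 1, the calls at Epha6 (0.00623) and Efna5 (0.0235) passed and the other 4 had edgeR adjusted p = 0.104 to 0.301. With wild-type replicate 2 left out, that of Epha2 (0.0119) passed and the others had 0.0758 to 0.237, and Epha3 was lost without mutant replicate 1 (0.0860).

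Slits are secreted proteins that repel cells through Robo receptors. Slit3, known from heart and diaphragm development, carried a call in each direction. The peak 1712 bp upstream of its start (chromosome 11, 35119261 to 35119744) had 5.26 and 4.23 CPM in the wild type against 9.25 and 10.8 CPM in the mutant. Both mutant values were higher (log2 ratio 1.08, SE 0.26, edgeR adjusted p = 0.0182). The peak 130180 bp downstream (35251636 to 35252465) had 11.5 and 10.5 CPM in the wild type against 4.14 and 5.81 CPM in the mutant. Here both mutant values were lower (log2 ratio -1.15, SE 0.25, edgeR adjusted p = 0.0128). The peak nearest the Slit3 start had 6.39 and 5.78 against 5.41 and 5.05 CPM, which did not pass (log2 ratio -0.22, edgeR adjusted p = 0.692). The higher call passed without wild-type replicate 1 (0.0491) but not without wild-type replicate 2 (0.185), and the lower call was lost without either (0.0793 and 0.0555).

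Slit1 and Slit2 had 6 and 5 peaks and 0 calls (0 higher and 2 lower at an unadjusted p under 0.05, both at Slit2; 0 by DESeq2 and limma voom). The Robo receptors had 27 peaks, 5 of them in reach of both Robo3 and Robo4, which neighbour each other on chromosome 9. They held 0 calls (2 higher and 6 lower at an unadjusted p under 0.05; 0 by DESeq2 and limma voom), with a median log2 ratio of -0.18. Medians were -0.43 for Robo1 and -0.32 for Robo2, receptors of neurons and mesenchyme, and -0.14 for Robo4, which is known from endothelial cells. Without wild-type replicate 1 the Robo1 median was -0.65 and that of Robo4 turned to 0.04.

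Netrins are secreted, laminin-related guidance cues, and Unc5 proteins are their repulsive receptors. Of 44 netrin peaks 1 was higher, and of 27 Unc5 peaks 2 were higher; 0 were lower in either family (5 and 2 lower at an unadjusted p under 0.05; 0 lower by DESeq2 and limma voom). Unc5b, the Unc5 receptor of endothelial cells, had a peak 13852 bp from its start (chromosome 10, 60816796 to 60817729) with 7.41 and 8.15 CPM in the wild type against 14 and 18.5 CPM in the mutant. Both mutant libraries were high (log2 ratio 1.06, SE 0.22, edgeR adjusted p = 0.00962), while the peak over the Unc5b start had 44.0 and 46.7 against 55.5 and 44.4 CPM, which overlapped. Unc5d had a weak peak within the gene (chromosome 8, 28749648 to 28749899) with 1.30 and 0.826 against 3.77 and 3.41 CPM (log2 ratio 1.76, SE 0.39, edgeR adjusted p = 0.0138). Ntn4, a netrin of basement membranes, had a peak 22142 bp from its start (chromosome 10, 93663191 to 93663579) with 1.87 and 1.65 against 4.68 and 4.54 CPM (log2 ratio 1.39, SE 0.34, edgeR adjusted p = 0.0215). Replicates lay close at Ntn4, while the wild-type values at Unc5d and the mutant values at Unc5b were further apart. Without wild-type replicate 1 the Unc5d call passed (0.0273) and those of Unc5b (edgeR adjusted p = 0.0772) and Ntn4 (0.0805) were lost; without wild-type replicate 2 all 3 were lost (0.0584 for Unc5b, 0.156 for Unc5d and 0.157 for Ntn4).

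Start peaks show which members had open promoters in these hearts. Of the 59 genes with a listed start, 49 had a peak within 1 kb of it, and in 38 the strongest such peak covered the start. The 10 without were Sema6d, Sema4a, Sema3a, Sema3e, Sema4f, Sema4g, Epha6, Epha8, Epha10 and Plxnb3. Sema6d is thus the gene with most peaks and has none within 1 kb of a listed start. Levels between genes were compared per kb of peak. The highest was at Sema4b, with 48.0 and 54.8 CPM per kb in the wild type against 50.1 and 43.5 in the mutant, from a peak that ends 458 bp before the start. Next came Ephb3, known from endothelial and mesenchymal cells, with 40 and 50.3 against 48.8 and 49.6 CPM per kb; the ranges of these 2 genes overlapped. Both lay above every library of the third gene, Nrp1, at 25.8 and 24 against 34.6 and 25.1 CPM per kb. From Nrp1 on, neighbours in the order overlapped: Robo4 had 21.3 to 33.2 over the 4 libraries, Unc5b 22.5 to 28.4, Sema6b 20.5 to 26.9 and Efnb1 22.1 to 24.4 CPM per kb. The median over the 49 genes was 12.4 and the lowest was Epha1 at 5.88 CPM per kb.

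**Figure D5:**
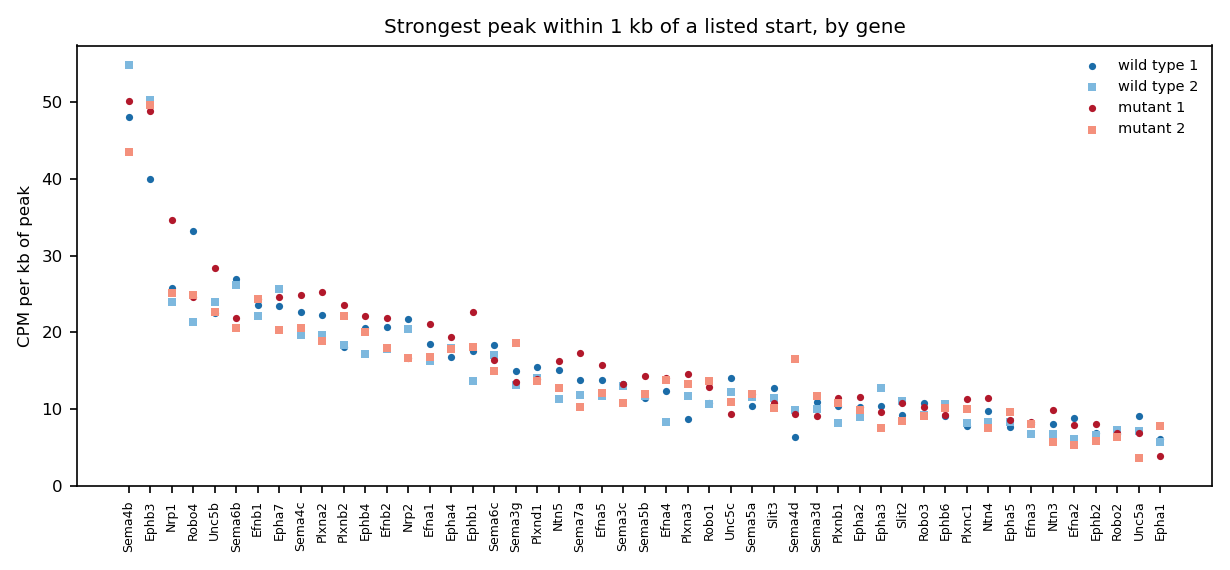
Accessibility of the strongest peak within 1 kb of a listed start (y axis, CPM per kb of peak) for 49 member genes in falling order, 1 point per library. Sema4b and Ephb3 lie above all other genes in every library, and the libraries of the 2 genotypes mix at many genes.

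No start peak passed the test between the genotypes. The log2 ratios of the 49 start peaks lay between -0.62, at Unc5a, and 0.66, at Sema4d, with a median of 0.10 (3 at an unadjusted p under 0.05, and 0 by DESeq2 and limma voom). By family, the strongest start peaks in CPM were those of Nrp1 (wild type 114 and 106, mutant 153 and 111), Efna1 (122 and 107, 139 and 111), Plxnb2, given above, and Ephb4 (94.9 and 79.6, 102 and 92.4). Efna1 and Ephb4 are, with Efnb2, ephrin and Eph genes of blood vessels, Ephb4 marking veins and Efnb2 arteries. The log2 ratios were 0.27 (SE 0.14), 0.13 (SE 0.13) and 0.15 (SE 0.13) for Nrp1, Efna1 and Ephb4 (edgeR adjusted p = 0.282, 0.630 and 0.539). Mutant replicate 1 had the highest value at Nrp1, Efna1 and Ephb4, and without mutant replicate 2 the start peaks of Nrp1 (edgeR adjusted p = 0.00234), Plxnb2 (0.0362) and Ephb1 (0.0181) passed. In the other families the strongest were Sema4c (74.2 and 64.5, 81.6 and 67.2 CPM), Efnb1 (60.8 and 57.2, 63.0 and 63.2), Epha4 and Unc5b, given above, Robo1 (14.6 and 14.5, 17.5 and 18.4) and Slit2 (6.73 and 8.05, 7.85 and 6.18). For Ntn1, whose start was not listed, the strongest peak within 1 kb of either gene end had 30.2 and 32.7 against 51.5 and 33.5 CPM, high in mutant replicate 1 (log2 ratio 0.43, edgeR adjusted p = 0.154, and 0.000212 without mutant replicate 2). At Epha4 the start peak had a log2 ratio of 0.10 and the called peaks inside the gene -1.35 and -0.85. The called peaks were picked by passing the threshold and the start peak by its place, so these values do not compare start and interior. Of the 10 Epha4 peaks 8 were not called, and the median over all 10 was -0.33.

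The partners of these receptors and the proteins that carry their signals, a list of 53 genes with 685 peaks, had 17 higher and 9 lower peaks, 659 that did not pass and a median log2 ratio of -0.04, or 0.03 without wild-type replicate 1. The called share, 3.8%, was under the 5.50% of all peaks. Without wild-type replicate 1, 4 of the 26 calls passed, without wild-type replicate 2, 5, and 1 passed whichever library was left out. Of the 26 calls, the 6 with the smallest p were at Mical3, Srgap2, Ablim3 (2), Dpysl3 and Trio. Mical3, of a family of actin-oxidising enzymes that act below plexins, had a peak (chromosome 6, 121173064 to 121173968) with 10.4 and 13.2 CPM in the wild type against 25.2 and 28.5 CPM in the mutant. Both mutant libraries were high (log2 ratio 1.19, SE 0.19, edgeR adjusted p = 0.00169), and the call passed whichever library was left out (0.0313 at most). The other 2 higher Mical3 peaks were lost without either wild-type library (edgeR adjusted p = 0.0707 to 0.194) and without mutant replicate 1 (0.0507 and 0.241). A peak of Srgap2, which encodes a Slit-Robo GTPase-activating protein, had 11.6 and 12.1 against 4.26 and 5.68 CPM (log2 ratio -1.25, edgeR adjusted p = 0.00680; 0.0520 without wild-type replicate 2), and a further pair of Srgap2 peaks was higher, but neither passed when wild-type replicate 1 was left out (edgeR adjusted p = 0.269 and 0.0791), nor did the second without wild-type replicate 2 (0.251) or mutant replicate 2 (0.0520). The 2 Ablim3 peaks fell by 1.05 and 2.41 on the log2 scale and the 4 called Ablim1 peaks were lower too, none of which passed with wild-type replicate 2 left out (edgeR adjusted p = 0.145 to 0.354). Both genes encode actin-binding LIM proteins, and neither Ablim3 call passed when wild-type replicate 1 was left out (edgeR adjusted p = 0.111 and 0.115), the second also without wild-type replicate 2 (0.0564). Dpysl3, a mediator of semaphorin signals, and Trio, a GTPase exchange factor, had peaks higher by 1.53 and 0.86 (edgeR adjusted p = 0.00842 and 0.0118; 0.0788 and 0.0823 without wild-type replicate 1, and 0.135 for Trio without wild-type replicate 2).

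Many of the members are active in particular cells, and in bulk tissue fewer cells of a type and lower accessibility per cell cannot be told apart. Start peaks of the 8 cardiomyocyte markers summed to 706 and 692 CPM in the wild type against 814 and 723 in the mutant, and all 8 had a start peak. Those of the 8 endothelial markers summed to 258 and 176 CPM in the wild type, the high value in replicate 1, and to 198 and 200 in the mutant. Peaks at endothelial markers numbered 93, with 5 lower, 0 higher and a median log2 ratio of -0.15, which was 0.08 without wild-type replicate 1. DESeq2 called 1 lower and limma voom 3, with 0 higher by either, so the count of lower peaks depended on the method. The 9 members known from endothelium (Efna1, Efnb2, Ephb4, Nrp1, Nrp2, Plxnd1, Robo4, Sema3g and Unc5b) had 123 peaks, 1 of them called, at Unc5b, and a median of 0.02, while the other 59 members had a median of 0.01. Without wild-type replicate 1 these medians were 0.14 and 0.03, and without wild-type replicate 2 they were -0.08 and 0. The part of endothelial cell content in these values was not tested.

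Called shares at the marker lists lay near or below the 5.50% of all peaks: 5 of 93 endothelial (5.38%), 12 of 204 cardiomyocyte (5.88%), 1 of 34 fibroblast (2.94%), 2 of 53 mural (3.77%), 1 of 20 immune (5%) and 1 of 16 Schwann and neuronal marker peaks (6.25%). Of the cardiomyocyte calls 8 were higher and 4 lower, with a median log2 ratio of 0.06 that turned to -0.08 without mutant replicate 1 and was 0.21 without mutant replicate 2. No peak lay near Adgre1, a macrophage marker. Start peaks of Schwann and neuronal markers summed to 32.5 and 41.5 CPM in the wild type against 38.4 and 45.6 in the mutant, and those of mural markers to 52.6 and 53.2 against 60.7 and 65.8. Whether these cells took part in the differences at the members was not tested. The 3 X-linked members, Plxna3, Plxnb3 and Efnb1, had 8 peaks and 0 calls.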

How the data were processed

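ATAC-seq profiled open chromatin in 2 wild-type and 2 Carm1 mutant mouse heart samples, grouped by their titles. The authors deposited raw counts per peak for the 4 libraries as a single table, which are not normalized: whole numbers that sum to different totals, per the file headers. The submitters' processing notes name FastQC, Bowtie2 and mm10; the peak caller, read filters, duplicate handling, transposase shift and making of the common peak set are not given in the labels, although such steps decide which regions and reads are counted.

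Counts were fitted over all 87948 peaks in R 4.3.3 by the quasi-likelihood F test of edgeR 4.0.16 (model with genotype alone, TMM, filterByExpr, which removed 0 peaks, and Benjamini-Hochberg adjustment over all peaks, threshold 0.05). SEs derive from the test statistic, with 2 residual degrees of freedom per peak and a common biological coefficient of variation of 0.166. The procedure was also run on simulated counts drawn with the dispersion of this fit, so that run cannot test whether the model suits these libraries. Coordinates are printed as in the table. Of the 655 member peaks, 50 lay within 1 kb of an end of another protein-coding gene, and all 655 entered the fit. Depth limits weak peaks most; depth outside peaks is unknown.

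Members, gene lists and tests were chosen with earlier results of these data known. Named peaks were every called member peak, the strongest peak within 1 kb of each start, genes with 2 or more calls, and the 6 pathway peaks with the smallest p. Alternatives were DESeq2 1.42.0, limma 3.58.1 (voom), RLE, total-count and cyclic loess scaling, no filter or a mean CPM of at least 2, each library left out, a replicate block, and other peak windows. The cyclic loess fit used offsets per peak. Tables and figures were made with Python 3.11.15.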

Additional observations from a re-analysis of the deposited data

How the results depend on the processing

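The 12 higher and 12 lower member peaks became 7 and 6 with DESeq2, and the 17 and 9 pathway peaks 8 and 5. Lost with DESeq2 were the calls at Efna5, Ntn4, Sema4f, Sema6a, Sema3b and Epha3 and both at Plxna2. The called Sema5a peak nearest the start, the stronger called Epha4 peak and the weaker called Plxnc1 peak were lost too. These calls had DESeq2 adjusted p from 0.0502 (Plxna2) to 0.349 (Sema4f). When 1 library at a time was left out, higher calls ranged from 2 to 30, lower calls from 0 to 30 and the median log2 ratio from -0.004 to 0.06. The median was -0.023 with total counts and 0.05 with peaks up to 50 kb from the gene; the cause was not tested. Other scalings, filters, limma voom and the remaining peak windows left both counts within 1.5 times, and the largest shift of the median over all peaks was to -0.04, with total counts. With the replicate block, 29 higher and 34 lower peaks were called, including all 24 called without it; the labels say of the numbers only that they name samples, and deviations from the genotype means correlated at 0.108 between same-numbered libraries across peaks. No called peak changed direction in any alternative, which the lack of overlap between the genotypes at all 24 largely fixed in advance. Among the start peaks named, none of them called, Efna1, Sema4c and Unc5b turned to -0.04, -0.05 and -0.03 without mutant replicate 1, and Slit2 to 0.06 and 0.08 when replicate 2 of the wild type or of the mutant was left out. Of the 24 calls, 7 remained without wild-type replicate 1, 2 without wild-type replicate 2, 21 without each mutant library, 13 with DESeq2 and 21 with limma voom. Called peaks at Epha6 and Efna5 have a mean under 2 CPM and give no value under that filter.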
